A study of Drosophila melanogaster with 11 samples.

Results

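The genes btsz and Wbp2 host circular RNAs (circRNAs) that rank 2 and 3 by mean level among the 1837 circRNAs of 50 nt or more in this series of male fly heads, and every circRNA of these 2 hosts is described here beside its linear RNA. The members are the 7 circRNAs that the deposited table assigns to these hosts, 5 of btsz and 2 of Wbp2, of 1928 circRNAs in all, and the 2 linear rows of the hosts, of 13804 linear rows. The hosts were chosen by their high circle levels and by small differences between temperatures in these same libraries, so their abundance and their values across temperatures are given as a description, with no test. The heads came from wild-type CantonS males of Drosophila melanogaster, raised at 25 °C in 12 h of light and 12 h of dark, mated, and then separated under CO2 with a day to recover. They were frozen after 10 days at 18 °C (3 libraries), 25 °C (2 libraries) or 29 °C (3 libraries), or before any exposure (pre-treatment, 3 libraries). No transgene or mutation was used, heads were pooled for each library, and part of the study's text calls the tissue brain where the labels say head.

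A circRNA forms when a splice donor joins an acceptor that lies upstream of it, so that 1 or more exons close into a ring without free ends. Such rings are long lived and are most plentiful in nervous tissue, and they are counted by reads that cross the head-to-tail junction. The gene btsz (bitesize) encodes a synaptotagmin-like protein with C2 domains that organizes actin at the cell cortex in fly embryos, and Wbp2 encodes a protein that binds WW domains, among them those of Yorkie, the transcriptional coactivator that the Hippo pathway restrains.

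The gene btsz (FBgn0266756) lies on the minus strand of chromosome 3R at 14804092-14875488 (dm6) and has 9 annotated transcripts, whose exons together cover 17286 nt. Its leading circle, the one with the highest mean, is the single exon 3R:14859309-14860067 of 759 nt. That exon is found in 2 transcripts, holds 1 annotated start codon and has 530 coding nucleotides, so the ring starts in the 5′ UTR and runs into the coding sequence. The 4 minor circles of btsz lie further downstream. Of these, 3R:14823863-14827656 (3794 nt, 5 exons) and 3R:14823863-14830694 (6832 nt, 6 exons) share the donor end, whereas the 6832 nt span and 3R:14825037-14830694 (5658 nt, 4 exons) share the acceptor end. The fourth, 3R:14814249-14821364 (7116 nt), has an end that lies 81 nt from the nearest annotated exon end.

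The gene Wbp2 (FBgn0036318) is compact, on the plus strand of chromosome 3L at 12850165-12853169 (dm6), with 6 transcripts and 2007 nt of exon. Its leading circle, 3L:12851309-12852277, spans 969 nt and joins the edges of annotated exons, which in 2 transcripts make up 2 exons of 460 nt. It holds no annotated start codon. The minor circle of Wbp2, 3L:12851387-12852277 (891 nt), ends at the same donor but begins 78 nt inside the exon, at a position that is not annotated as an exon edge. Both leading circles thus sit among very different introns. The shortest annotated introns beside the btsz circle are 13096 nt upstream and 28614 nt downstream, longer than those of 85.8% and 96.1% of the 1476 circRNAs with annotated ends and introns on both sides. The introns beside the leading Wbp2 circle are 155 nt and 149 nt, longer than those of 4.13% and 3.46% of these circRNAs, whose medians are 2685 nt and 1942.5 nt.

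**Figure D1:**
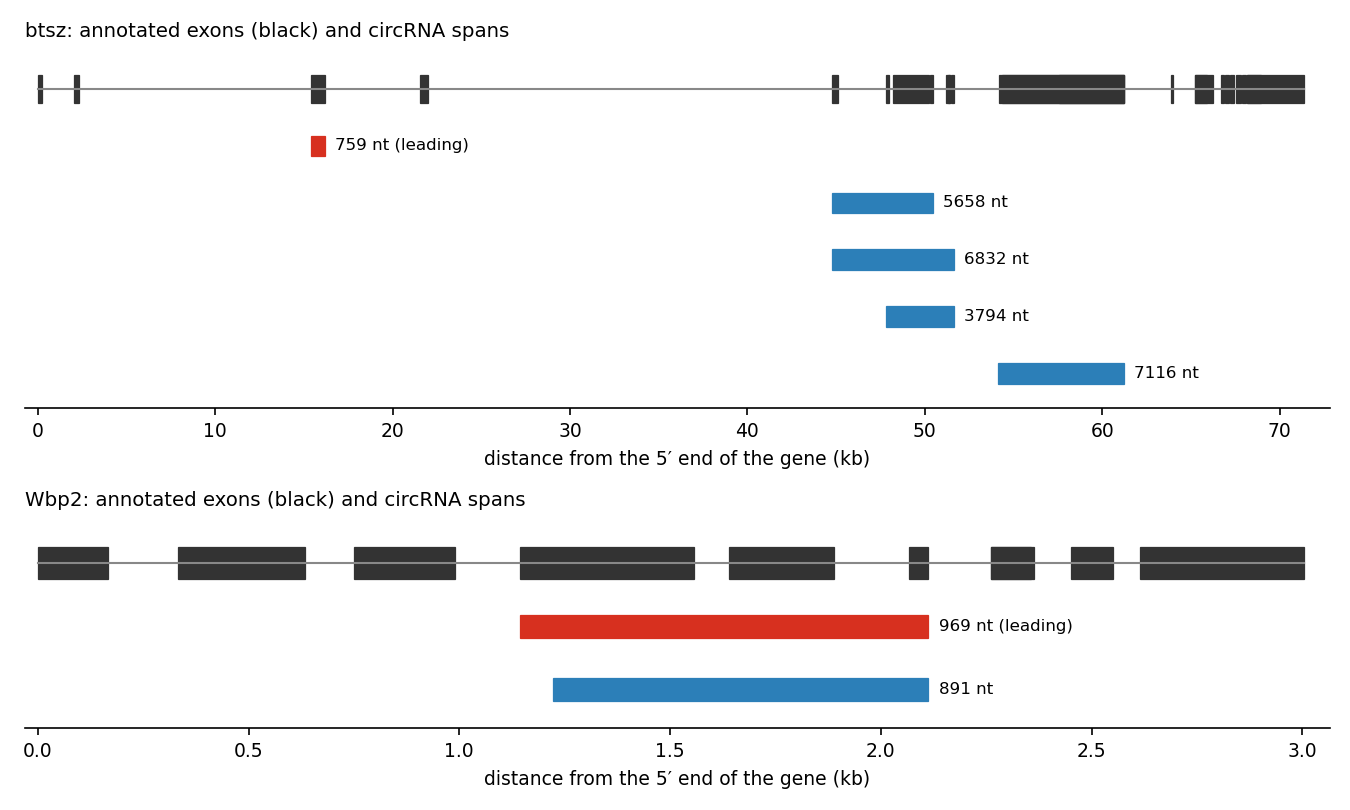
Annotated exons (black boxes, all transcripts merged) and the circRNA spans of btsz (top) and Wbp2 (bottom), drawn to scale against the distance from the 5′ end of the gene in kb; the leading circle is red and minor circles are blue. The leading btsz circle is 1 exon of 759 nt between long introns, while the leading Wbp2 circle covers 969 nt of a gene of 3005 nt.

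The table held 51011022 to 123404737 reads in the libraries after 10 days and 32064412 to 52431127 in the pre-treatment libraries, with 12451 to 65564 junction reads per library. Depth therefore moved with the comparison, and its part in the results was not tested beyond a fit with depth as a covariate. Pre-treatment replicate 2 stood apart: its circRNAs summed to 13271 normalized reads, against 29732 to 44203 in the other 10 libraries. Changes over all exposed groups in the leading circles, their ratios and the circle sums are therefore also given without it. The 10 days of exposure are also 10 days of age, and in flies moved to 18 or 29 °C age and temperature cannot be told apart against pre-treatment. Markers of photoreceptors, neurons and glia were present in every library, and the 3 testis markers summed to 207 normalized reads or less. The 4 photoreceptor markers summed to 1890701 to 2010616 normalized reads at 29 °C, against 1338952 to 1358991 in pre-treatment libraries. The 4 glial markers summed to 50465 to 54089 at 25 °C and 42545 to 43705 at 29 °C, against 65715 to 77376 in pre-treatment libraries. The 4 neuronal markers summed to 226129 to 252104 in pre-treatment libraries. Their sums were lower at 18 °C (182792 to 217420) and 25 °C (192461 to 221712), without overlap with pre-treatment. At 29 °C the neuronal sums, 215611 to 234014, overlapped with pre-treatment. The photoreceptor, glial and neuronal sums at 29 °C stand beside the 29 °C calls of Wbp2 and the 7116 nt btsz circle. The 4 muscle markers summed to 106767 to 164460 normalized reads after 10 days, against 239659 to 325516 in pre-treatment libraries, and the 6 fat body markers reached 193481 at 18 °C, against at most 82213 in pre-treatment libraries. Whether these shifts bear on the members was not tested, and in bulk heads fewer cells of a type and less RNA per cell cannot be told apart.

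The leading btsz circle was abundant before exposure and after 10 days, and no change passed the test. It gave 935, 279 and 1075 normalized reads in pre-treatment libraries, 878, 708 and 1214 at 18 °C, 1217 and 1157 at 25 °C, and 970, 1056 and 810 at 29 °C. A normalized read is a read divided by the size factor of its library, here worth 0.474 to 1.99 normalized reads. Every group overlapped with pre-treatment except the 25 °C libraries, which lay above all 3 of its values. The share of all circRNAs that did so at 25 °C is not given here. The mean was 1001 ± 192 after 10 days and 763 ± 425 in pre-treatment heads (SD, n = 8 and 3), a log2 fold change of 0.62 with a standard error of 0.40 (limma, 95% interval -0.25 to 1.49, adjusted p = 0.273). Without pre-treatment replicate 2 the log2 fold change was 0.0035. The circle ranked first or second among 1837 circRNAs in every library and took 2.06 to 3.67% of all circRNA signal.

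The leading Wbp2 circle was called higher after 10 days, and the difference between the 2 leading circles was not tested. It gave 226, 99.2 and 211 normalized reads in pre-treatment libraries, 310, 253 and 338 at 18 °C, 291 and 458 at 25 °C, and 400, 428 and 416 at 29 °C. All 8 libraries after exposure lay above all 3 pre-treatment libraries, which 10.9% of the 1767 tested circRNAs also showed. The means were 362 ± 73.9 after 10 days and 179 ± 69.5 in pre-treatment heads (SD, n = 8 and 3), and the log2 fold change was 1.08 with a standard error of 0.30 (limma, 95% interval 0.43 to 1.72, adjusted p = 0.0245). At 29 °C alone it was 1.30 (limma, adjusted p = 0.0254), while at 18 and 25 °C it was 0.82 and 1.12 and missed the test (limma, adjusted p = 0.157 and 0.133). The log2 fold change was 0.70 without pre-treatment replicate 2 (limma, adjusted p = 0.0367), and the rise was also called by edgeR (adjusted p = 0.0469) and with depth as a covariate (limma, adjusted p = 0.0482). The call was lost without 18 °C replicate 1, 25 °C replicate 2 or 29 °C replicate 3 (limma, adjusted p = 0.0528, 0.0606 and 0.0529). The call at 29 °C was lost without any 1 of its 3 libraries (limma, adjusted p = 0.0842 to 0.0965).

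**Figure D2:**
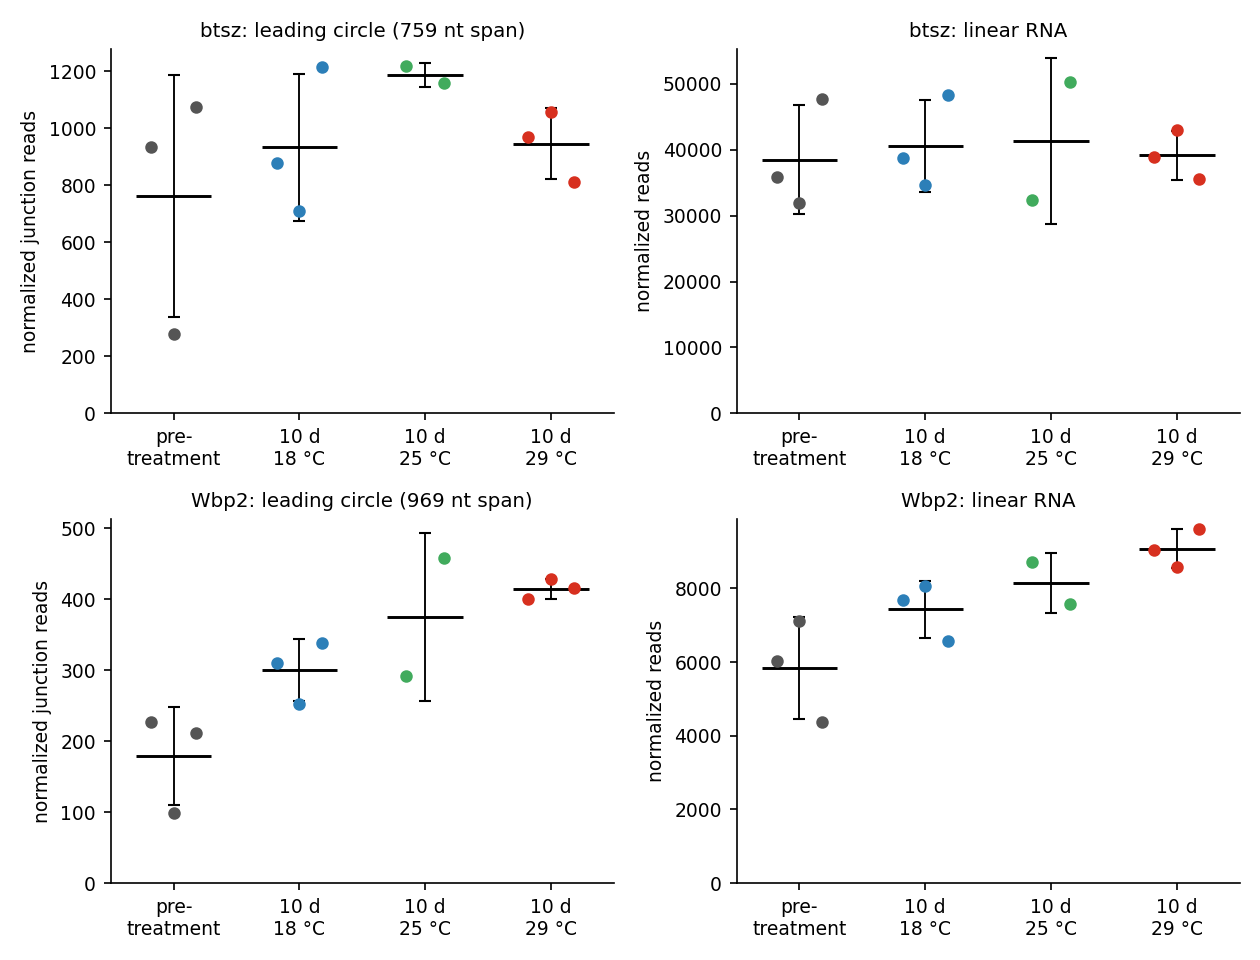
Normalized reads of the leading circle (left) and of the linear RNA (right) of btsz (top) and Wbp2 (bottom) in each library, by group; points are libraries, the horizontal line is the group mean and the bar its SD. The leading btsz circle reached 1217 normalized reads after 10 days and 1075 before exposure, whereas every leading Wbp2 value after 10 days was above the highest pre-treatment value of 226.

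These changes stood within a general shift of the circRNAs. Among 1767 tested circRNAs, 21.8% were called higher after 10 days (adjusted p under 0.05 and a log2 fold change above 0.5), and the median log2 fold change was 0.80. When circRNAs and linear genes were scaled to their own totals, that median was 0.36. Relative to the main median the leading Wbp2 circle was 0.28 higher and the leading btsz circle 0.18 lower, and 62.9% and 40.2% of tested circRNAs had smaller changes. The share called higher against pre-treatment was 9.62% at 18 °C, 3.85% at 25 °C and 19.1% at 29 °C. Scaled to the circRNA total, the leading Wbp2 circle had a log2 fold change of 0.48 (limma, adjusted p = 0.0430), just under the fold threshold, and the leading btsz circle one of 0.01. As a share of all circRNA signal the leading Wbp2 circle held 0.850 to 1.08% after 10 days and 0.601 to 0.747% in pre-treatment libraries. These did not overlap, and how often other circRNAs separated on this scale is not given here.

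**Figure D3:**
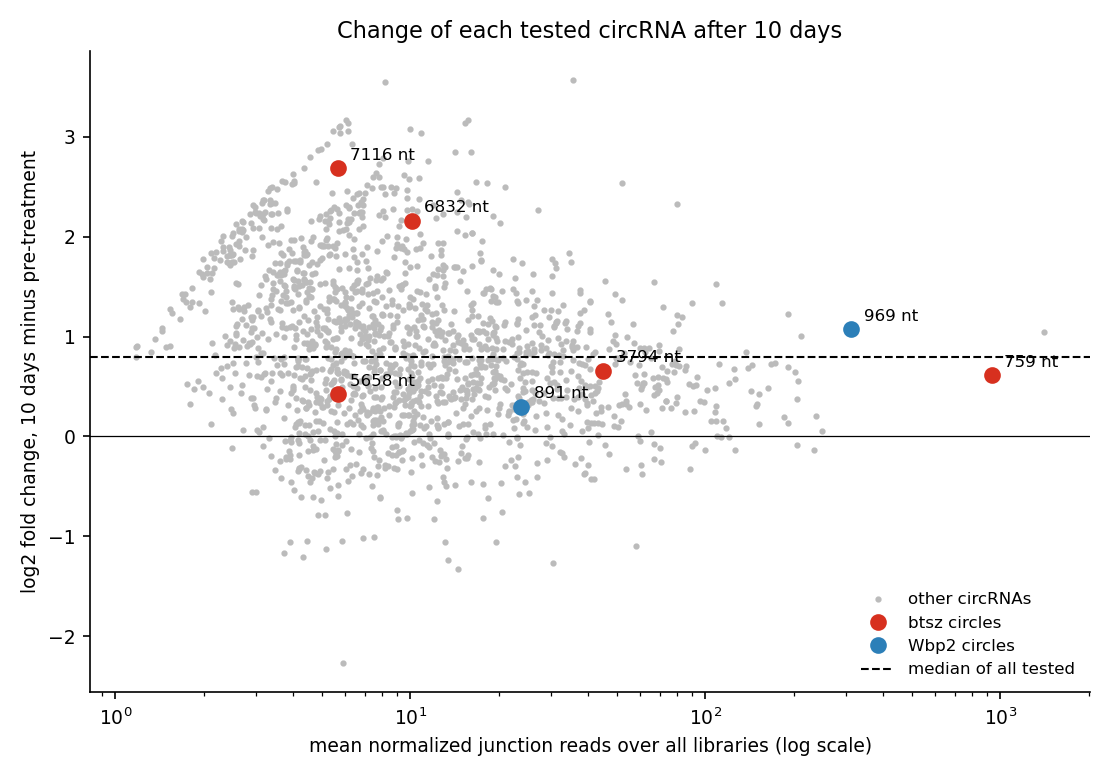
The log2 fold change after 10 days minus pre-treatment (y axis, limma) against mean normalized junction reads over all libraries (x axis, log scale) for 1767 tested circRNAs (grey), with the circles of btsz in red and of Wbp2 in blue; the dashed line is the median of all tested circRNAs, 0.80. Both leading circles lie at the right edge, 1 on each side of the median, and the 7116 nt and 6832 nt circles of btsz lie far above it. The 7116 nt and 6832 nt circles entered the test only through exposed groups, where they are high.

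Of the minor btsz circles, 2 were called higher after 10 days, and they peaked at opposite temperatures. Both passed the filter on low values only through exposed groups, where they are high, so their calls are a description and not support for a rise. The 7116 nt circle was not detected in pre-treatment libraries, gave 4.80, 4.27 and 0 normalized reads at 18 °C, 4.58 and 4.25 at 25 °C, and 12.7, 17.4 and 14.3 at 29 °C. These correspond to 15, 16 and 19 junction reads at 29 °C. The count of 0 in pre-treatment allows a level of up to 1.49 normalized reads over the group (3 reads, counting error only), so the mean at 29 °C, 14.8, was at least 9.95-fold higher. With that limit, it was called higher at 29 °C (limma, adjusted p = 0.00328) and over all exposed groups (limma, adjusted p = 0.00753). Under edgeR on recovered reads the call over all exposed groups was lost (adjusted p = 0.0579), and with depth as a covariate too (limma, adjusted p = 0.120).

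The 6832 nt circle had its highest values at 18 °C. It gave 3.14, 2.28 and 0 normalized reads in pre-treatment libraries, 24.7, 26.6 and 21.5 at 18 °C, 4.58 and 8.51 at 25 °C, and 11.04, 6.53 and 2.26 at 29 °C. The 18 °C mean of 24.2 ± 2.57 was 13.4-fold that of pre-treatment heads, 1.81 ± 1.62 (SD, n = 3 each), with a log2 fold change of 3.40 with a standard error of 0.67 (limma, adjusted p = 0.00927). Pre-treatment libraries held only 2, 2 and 0 junction reads, and this call was lost without 18 °C replicate 1 (limma, adjusted p = 0.0509). Over all exposed groups the log2 fold change was 2.16 (limma, adjusted p = 0.0180). That call was lost with DESeq2 (adjusted p = 0.0581), with edgeR (adjusted p = 0.0825), after scaling to the circRNA total (limma, adjusted p = 0.0923) and with depth as a covariate (limma, adjusted p = 0.118). Both circles entered the test only through exposed groups, where they are high. Their calls are therefore given as a description, and their number is no measure of how often btsz circles changed.

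The remaining btsz circles missed the test. The 3794 nt circle, the strongest of the minor circles, gave 37.7, 13.7 and 39.9 normalized reads in pre-treatment libraries, 76.8, 47.0 and 84.7 at 18 °C, 20.1 and 51.0 at 25 °C, and 39.1, 58.8 and 26.3 at 29 °C. All 18 °C libraries lay above all pre-treatment libraries, with a log2 fold change of 1.26 (limma, adjusted p = 0.115). How often other circRNAs separated in this way is not given here. The 3794 nt circle shares its donor with the 6832 nt circle, which closes 1 exon further upstream. Within this pair the 6832 nt circle made up 24.3, 36.1 and 20.2% at 18 °C, against 7.69, 14.3 and 0% in pre-treatment libraries. At 25 °C it made up 18.5 and 14.3%, and at 29 °C 22.0, 10.0 and 7.89%. The 5658 nt circle stayed between 2.28 and 7.55 normalized reads in all libraries, and its log2 fold change over all exposed groups was 0.42 (limma, adjusted p = 0.528), and -0.06 when scaled to the circRNA total.

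The minor Wbp2 circle gave 18.9, 7.98 and 33.9 normalized reads in pre-treatment libraries, 13.03, 13.8 and 13.1 at 18 °C, 15.6 and 21.3 at 25 °C, and 37.4, 42.5 and 43.6 at 29 °C. Its 29 °C libraries lay above all others, a separation whose share over all circRNAs is not given here. Its 18 °C libraries were within the pre-treatment range. The log2 fold change was 1.19 at 29 °C (limma, adjusted p = 0.0746) and 0.30 over all exposed groups (limma, adjusted p = 0.587), which turned to -0.27 when scaled to the circRNA total and to -0.22 without pre-treatment replicate 2. None of the 7 circles was called at 25 °C by limma. Before adjustment 2 of them passed 0.05 in limma, the leading Wbp2 circle and the 7116 nt btsz circle. Nothing is read from that count, since the share over all circRNAs is not given here. On recovered reads edgeR called none of the 7, and DESeq2 called the leading Wbp2 circle (log2 1.07, adjusted p = 0.0301).

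**Figure D4:**
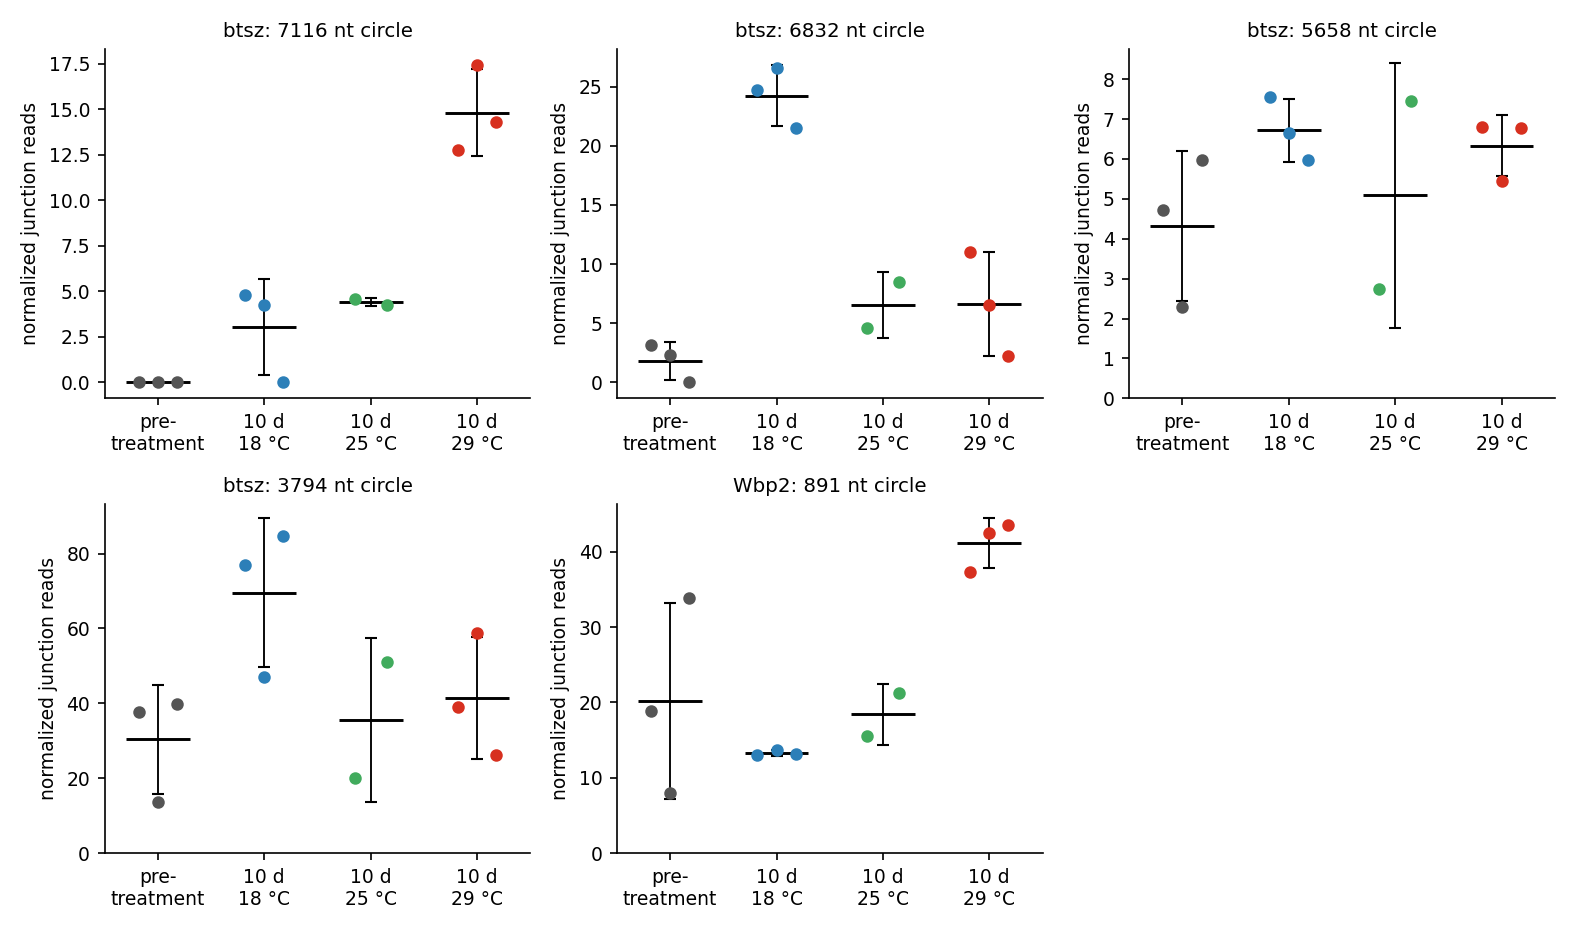
Normalized junction reads of the 4 minor btsz circles and the minor Wbp2 circle in each library, by group; points are libraries, the line is the group mean and the bar its SD. The 7116 nt btsz circle and the 891 nt Wbp2 circle were highest at 29 °C (means 14.8 and 41.1), and the 6832 nt and 3794 nt btsz circles at 18 °C (means 24.2 and 69.5).

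In both hosts a single circle dominated in every library. The leading circle held 93.4% of the summed mean circle signal of btsz and 92.9% of that of Wbp2, 10th and 11th of 346 hosts with 2 or more circles, whose median was 62.3%. The share of the leading btsz circle was 95.4, 93.9 and 95.9% in pre-treatment libraries, 88.5, 89.3 and 91.5% at 18 °C, 97.4 and 94.2% at 25 °C, and 93.3, 92.3 and 94.2% at 29 °C. The 18 °C libraries were the lowest of all. Wbp2 ran the other way, with 92.3, 92.6 and 86.2% in pre-treatment libraries, 96.0, 94.8 and 96.3% at 18 °C, 94.9 and 95.6% at 25 °C, and 91.5, 91.0 and 90.5% at 29 °C. The 29 °C libraries were the lowest of the exposed libraries. The mean share after 10 days did not pass the test against pre-treatment for btsz (92.6 ± 2.87% against 95.04 ± 1.05%, SD, n = 8 and 3, exact two-sided permutation p = 0.194) or for Wbp2 (93.8 ± 2.41% against 90.3 ± 3.61%, exact permutation p = 0.121).

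The circles of each host were also summed. The sum for Wbp2 was 387 ± 84.2 normalized reads after 10 days and 199 ± 79.7 in pre-treatment heads (SD, n = 8 and 3), a 1.94-fold difference with an exact two-sided permutation p of 0.0121. That is the smallest p this design can give, and over the 10 exact tests of this family it adjusts to 0.121. Without pre-treatment replicate 2 the mean of the 3 exposed groups was 1.58-fold that of pre-treatment heads. The sum for btsz was 1079 ± 191 after 10 days and 800 ± 440 in pre-treatment heads, 1.35-fold (exact permutation p = 0.218, adjusted p = 0.273), and 1.03-fold without pre-treatment replicate 2. Single temperatures could not pass, since the smallest possible exact p is 0.1 for 3 against 3 libraries and 0.2 for 2 against 3.

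The ratio of the leading circle to its host, junction reads per 1000 linear reads, does not depend on the size factor. For btsz it was 26.1, 8.76 and 22.5 in pre-treatment libraries, 22.6, 20.4 and 25.1 at 18 °C, 37.6 and 23.0 at 25 °C, and 24.9, 24.5 and 22.8 at 29 °C. Apart from the low pre-treatment replicate 2 and the high 25 °C replicate 1, all values lay between 20.4 and 26.1. For Wbp2 the ratio was 37.5, 13.9 and 48.4 in pre-treatment libraries, 40.3, 31.4 and 51.4 at 18 °C, 33.4 and 60.6 at 25 °C, and 44.2, 49.9 and 43.2 at 29 °C. All groups overlapped. The log2 change of the ratio after 10 days was 0.54 for btsz and 0.56 for Wbp2 (limma, adjusted p = 0.267 and 0.282), and without pre-treatment replicate 2 these were 0.06 and 0.03 (limma, adjusted p = 0.881 and 0.952). Scaled to the circRNA and linear totals they turned to -0.12 and -0.09. Over all 1641 tested ratios 21.0% were called higher. Of the minor circles, the 7116 nt and 6832 nt btsz circles were among these, with log2 changes of 2.61 and 2.09 (limma, adjusted p = 0.0137 and 0.0263). As for their levels, both circles entered the test only through exposed groups, where they are high, so these calls are given as a description. Both calls were lost with depth as a covariate (limma, adjusted p = 0.190 and 0.194). The call for the 6832 nt circle was also lost without pre-treatment replicate 3, 18 °C replicate 1, 18 °C replicate 2 or 25 °C replicate 2 (limma, adjusted p = 0.0846, 0.0515, 0.0529 and 0.0510). It was lost after scaling to the circRNA and linear totals too (limma, adjusted p = 0.167).

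A junction is a single point, whereas linear reads fall anywhere in the exons, so levels of different genes were compared per kb of exon. The linear rows count all reads within a transcript, so reads from inside a circle fall in the row of its host too. Their share in the linear rows and ratios was not measured. On this scale the leading btsz circle gave 0.407 junction reads for each linear read per kb of exon, the second highest of 1706 circRNAs. The leading Wbp2 circle gave 0.0826, the 24th highest, against a median of 0.00432. The exon length was that of all transcripts of a gene together, 17286 nt for btsz and 2007 nt for Wbp2, so the scale depends on the annotation. By plain reads per 1000 linear reads the order was reversed, with the leading btsz circle 14th (23.5) and the leading Wbp2 circle 5th (41.2) of 1706. The pre-treatment mean was 0.330 ± 0.158 for btsz, with 0.393 ± 0.0407 at 18 °C, 0.523 ± 0.178 at 25 °C and 0.416 ± 0.0199 at 29 °C (SD). For Wbp2 these means were 0.0668 ± 0.0353, 0.0824 ± 0.0202, 0.0943 ± 0.0386 and 0.0919 ± 0.00722 in the same order of groups. The exons of btsz overlap those of 1 other gene, the antisense gene CG14857, and the strand setting of the counting is not given in the sources used here, so reads of the 2 genes in that stretch cannot be told apart.

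**Figure D5:**
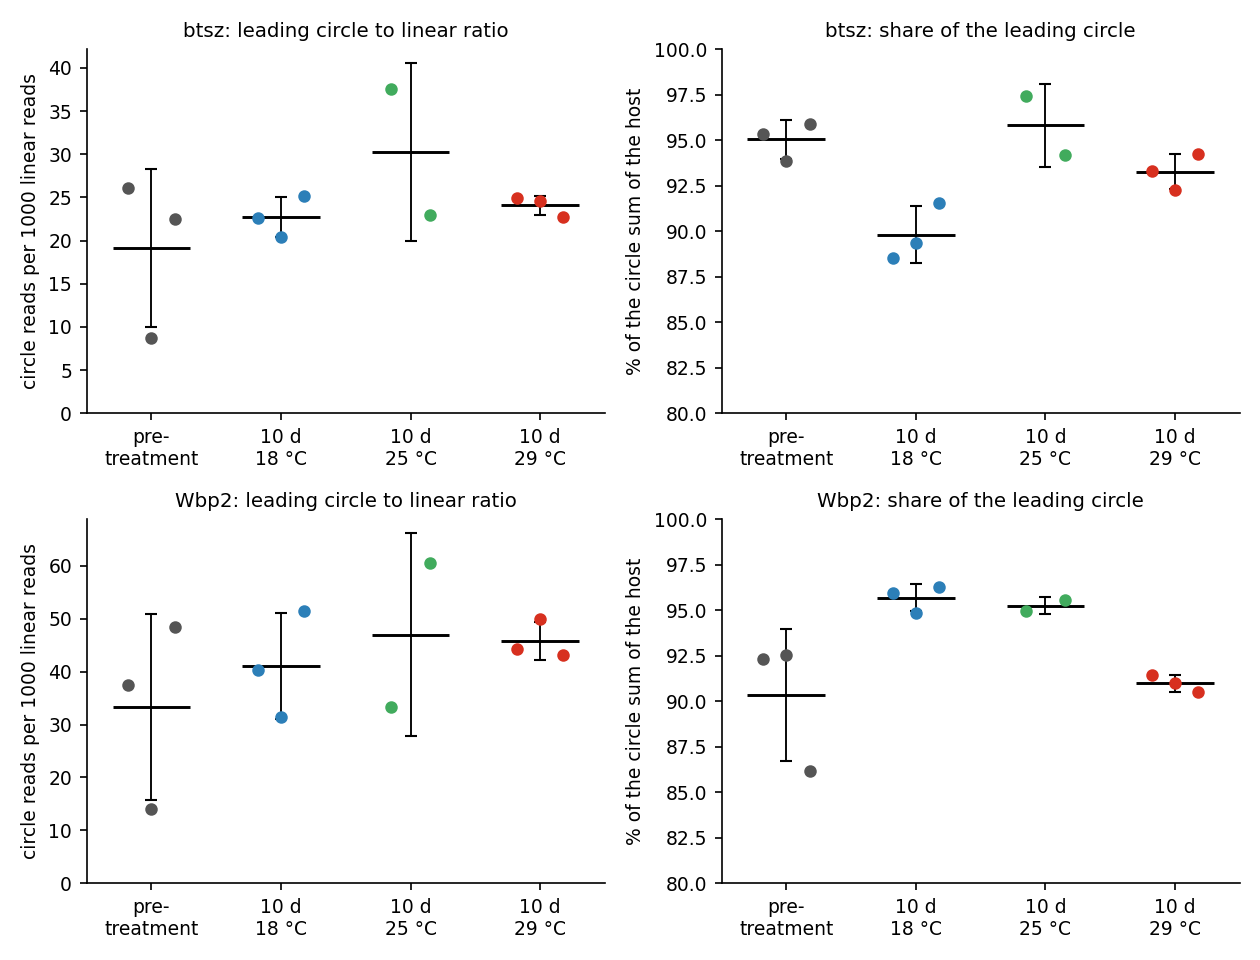
Leading circle reads per 1000 linear reads of the host (left) and the share of the leading circle in the circle sum of the host in percent (right, axis from 80 to 100%) for btsz (top) and Wbp2 (bottom), by group; points are libraries, the line is the group mean and the bar its SD. The low point in the left panels is pre-treatment replicate 2 (8.76 and 13.9), and the share of the leading circle was lowest at 18 °C for btsz and, among exposed groups, lowest at 29 °C for Wbp2.

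The linear RNA of btsz gave 35838, 31870 and 47761 normalized reads in pre-treatment libraries, 38824, 34650 and 48300 at 18 °C, 32394 and 50292 at 25 °C, and 38945, 43027 and 35616 at 29 °C. All groups overlapped, and the log2 fold change after 10 days was 0.07 with a 95% interval of -0.29 to 0.43 (limma, adjusted p = 0.787). The linear RNA of Wbp2 gave 6042, 7110 and 4367 normalized reads in pre-treatment libraries, 7686, 8054 and 6564 at 18 °C, 8719 and 7563 at 25 °C, and 9039, 8575 and 9616 at 29 °C. All exposed libraries but 18 °C replicate 3 lay above the highest pre-treatment library, and 5.17% of linear genes were without any overlap in this direction. The mean was 8227 ± 962 after 10 days and 5840 ± 1383 in pre-treatment heads (SD, n = 8 and 3), with a log2 fold change of 0.51 (limma, adjusted p = 0.0210), close to the fold threshold. Of 12676 tested linear genes 4.30% were called higher. Reads from inside the Wbp2 circles also fall in the linear Wbp2 row, and their part in this change was not tested.

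At 29 °C the log2 fold change of linear Wbp2 was 0.66 (limma, adjusted p = 0.0130), where 5.92% of linear genes were called higher. The call over all exposed groups was lost without pre-treatment replicate 1 or 3 (limma, adjusted p = 0.0553 and 0.0637). It fell under the fold threshold without 18 °C replicate 2, 25 °C replicate 1 or 29 °C replicate 3 (log2 0.49, 0.48 and 0.4989), and likewise with the replicate block (log2 0.49), in edgeR (log2 0.48) and in DESeq2 (log2 0.49). It was also lost with depth as a covariate (log2 0.20, limma, adjusted p = 0.321). At 29 °C it was lost without pre-treatment replicate 3 (log2 0.47) or 29 °C replicate 3 (limma, adjusted p = 0.0565), and with depth as a covariate (limma, adjusted p = 0.0741).

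Between the exposure temperatures the members are described without a test. The leading btsz circle averaged 933 ± 257 normalized reads at 18 °C, 1187 ± 42.1 at 25 °C and 945 ± 125 at 29 °C (SD, n = 3, 2 and 3), and the 29 °C mean was 1.01-fold the 18 °C mean. The leading Wbp2 circle averaged 300.2 ± 43.3, 375 ± 118 and 415 ± 14.0 at the same temperatures, and the 29 °C mean was 1.38-fold the 18 °C mean. Both hosts had been picked as steady across temperatures, which described 29 against 18 °C for the leading btsz circle, while for Wbp2 the 29 °C libraries lay above the 18 °C libraries without overlap, in the leading circle, in the minor circle and in the linear RNA. Nothing is read from that, since 42.4% of all tested circRNAs had groups without overlap in this comparison, counting either direction. That share was not taken for linear genes. Among the 44 circRNAs with a mean of 100 or more the median ratio of the 29 °C to the 18 °C mean was 1.30. The 25 °C libraries of the leading Wbp2 circle overlapped with both other temperatures, whereas both 25 °C libraries of the leading btsz circle lay above all 29 °C libraries and overlapped with those at 18 °C. The share of all circRNAs that separated between 25 and 29 °C is not given here, so nothing is read from this either. Among the 5 minor circles the 29 °C mean was 4.90-fold the 18 °C mean for the 7116 nt btsz circle and 3.09-fold for the minor Wbp2 circle. It was 0.943-fold for the 5658 nt, 0.596-fold for the 3794 nt and 0.273-fold for the 6832 nt btsz circle.

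The linear RNAs of the Hippo pathway, to which Wbp2 is linked through Yorkie, were followed as a list of 28 genes, all tested. After 10 days 1 was called higher and 3 were called lower, where 4.30% and 4.56% of all linear genes were called in these directions, and the list median was 0.02, beside -0.01 for all genes. The gene yki, which encodes Yorkie, was called higher, with a log2 fold change of 0.56 (limma, adjusted p = 0.0218), close to the fold threshold. Its mean was 3199 normalized reads over the 3 exposed groups and 2191 in pre-treatment heads. Pre-treatment libraries ran from 1645 to 2709 and overlapped with those at 18 °C, which began at 2619. It was named after its value was seen, and its values under the alternatives are not given here. The genes that fell were fj, a Golgi kinase that acts on cadherins, ft, the atypical cadherin Fat, and dachs, an unconventional myosin. Their log2 fold changes were -0.64, -0.54 and -0.61 (limma, adjusted p = 0.000514, 0.00124 and 0.00948).

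A list of 26 synaptotagmin, C2 domain and cortical genes stood beside btsz in the same way. Of these, all tested, 1 was called higher and 1 lower, where 4.30% and 4.56% of all linear genes were called in these directions. The list median was -0.09, beside -0.01 for all genes. Nothing is read from the number of calls. The gene par-6, which encodes a cell polarity scaffold, averaged 9174 normalized reads over the 3 exposed groups and 5141 in pre-treatment heads, with a log2 fold change of 0.83 (limma, adjusted p = 2.09e-05). The gene Rab27, which encodes a small GTPase of secretory vesicles, averaged 837 normalized reads over the 3 exposed groups and 1353 in pre-treatment heads, with a log2 fold change of -0.66 (limma, adjusted p = 0.0363).

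The pattern of each leading circle over the 11 libraries was set beside that of 375 other circRNAs with a mean of 20 or more, by the root mean square difference of centred log2 values. The circles nearest to the leading btsz circle were those of CG17816 (3R:7864261-7865761, 0.155), CrebB (X:18372031-18373455, 0.166) and CG13743 (2R:9049880-9051151, 0.190), where the median of the pool was 0.528. Those nearest to the leading Wbp2 circle were from CG32369 (3L:7803269-7804707, 0.197), rdgC (3L:20255898-20256638, 0.215) and mtd (3R:5334405-5336635, 0.224), with a pool median of 0.491. For the linear RNAs, set beside 9928 genes with a mean of 100 or more, the nearest to btsz were p47, trbl and CG31436 (0.0665 to 0.0711) and the nearest to Wbp2 were Edc3, Irbp18 and PAPLA1 (0.0518 to 0.0700). These points share libraries and depth, and no test is attached to them.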

How the data were processed

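Head-to-tail junction reads and linear reads of 11 ribodepleted, stranded total RNA libraries were used. The deposited signal values are normalized reads: the authors mapped reads to dm6 with STAR, assigned them to genes with featureCounts, found circRNA junctions with find_circ2, and divided both kinds of rows by a DESeq2 size factor for each library. Versions and the strand setting are not given in the sources used here. The values were whole multiples of a step in each library (100% within 0.01), and the reads recovered in this way entered edgeR 4.0.16 and DESeq2 1.42.0, as alternatives. Exons came from Ensembl release 115.

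The main test was limma 3.58.1 (R 4.3.3, moderated by an intensity trend) on log2(value + 1), a scale that understates the change of low values, with all 11 libraries and 4 groups in 1 model, exposed minus pre-treatment. CircRNAs needed a span of 50 nt or more and values above 3 in all libraries of some group (1767 circRNAs, all 7 members among them), genes a mean of 10 or more (12676), and ratios both (1641). Benjamini-Hochberg adjustment ran over each whole table, and calls needed an adjusted p below 0.05 with a log2 change beyond 0.5 in either direction. Sums and shares were compared with exact two-sided permutation tests in scipy 1.17.1. All members were named, with the 3 most alike circRNAs or genes and up to 3 called genes per list by adjusted p; yki, below that number in its list, was named after its value was seen. The members and lists were chosen with earlier results of these data known.

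Alternatives were pseudocounts of 0.5 and 5, no filter, stricter filters (means of 10 and 50), scaling to circRNA and linear totals, a replicate block, edgeR, DESeq2 and leaving out each library; a depth covariate was added after seeing the data. In simulated data for 10 days against pre-treatment, limma recovered 4.48%, 31.3% and 71.2% of circRNAs changed 1.5-, 2- and 4-fold (67, 67 and 66 of 1767). For linear genes it recovered 56.7%, 85.1% and 92.4% (67, 67 and 66 of 12676). The simulation changed features in both directions and held no general shift of the circRNAs and no low library, unlike these data, so its shares need not carry over. A floor of 3 reads was worth 1.42 to 5.98 normalized reads by library. The labels call replicates biological without saying more, so the p-values reflect only how these libraries spread.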

Additional observations from a re-analysis of the deposited data

Results flagged for a closer look

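The minor Wbp2 circle of 891 nt (3L:12851387-12852277) lay on opposite sides of the pre-treatment mean at 2 temperatures. Every library at 29 °C lay above the pre-treatment mean of 20.2 normalized reads (37.4, 42.5 and 43.6), and every library at 18 °C lay below it (13.03, 13.8 and 13.1), so that the 29 °C mean was 3.09-fold the 18 °C mean. The pre-treatment libraries themselves ran from 7.98 to 33.9 normalized reads and enclose the 18 °C values. Neither temperature differed from pre-treatment past the threshold, with a log2 fold change of 1.19 at 29 °C (limma, adjusted p = 0.0746) and of -0.36 at 18 °C (limma, adjusted p = 0.628). The difference between the 2 temperatures was not tested.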

How the results depend on the processing

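Pseudocounts of 0.5 and 5, no filter, and circles of 50 nt or more changed no direction and no call of the members and moved no count by over 1.5 times. The count of circRNAs called higher after 10 days, 385, was 68 with edgeR, 153 with DESeq2, 165 after scaling to circRNA and linear totals, 116 with the stricter filter, 88 with the depth covariate and 243 to 539 leaving out 1 library. That of ratios called higher, 344, was 132, 112 and 84 under scaling, stricter filter and depth covariate and 160 to 505 leaving out 1 library. For linear Wbp2 (log2 0.51) the alternatives gave 0.48 with edgeR, 0.49 with DESeq2 and 0.20 with the depth covariate, all under a threshold, and 0.32 to 0.67 leaving out 1 library. The leading Wbp2 circle (1.08) gave 0.48 after scaling and 0.70 to 1.29 leaving out 1 library. Scaling turned the ratios of the leading btsz and Wbp2 circles to -0.116 and -0.0938, those of the 3794 nt and 5658 nt circles to -0.052 and -0.190, and the levels of the 5658 nt and 891 nt circles to -0.0585 and -0.267. Leaving out 1 library, linear btsz ran from -0.0531 to 0.239, the 891 nt circle from -0.22 to 0.76 and its ratio from -0.89 to 0.44, and the depth covariate turned that ratio to 0.54. The stricter filter kept no value for minor circles with means under 10. Causes were not tested. The stricter filter leaves fewer features to test, while leaving out 1 library keeps the features and moved the counts in both directions.

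Correlations of deviations between same-numbered libraries ran from -0.47 to 0.47 over 15 pairs, 6 of them over 0.1. Values for differently numbered libraries are not given here, so whether replicate numbers pair the samples cannot be told from these. With the replicate block the counts of circRNAs and ratios called higher were 309 and 263, linear Wbp2 had a log2 change of 0.49, just under the fold threshold, and no other call of a member changed. Depth limits the minor circles, which rest on 0 to 58 junction reads per library apart from the 3794 nt circle.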

Other observations

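The circles of the genes in both pathway lists were also read after 10 days. For the Hippo list, 8 circles of 6 hosts were tested, with log2 fold changes whose median was 0.46, beside 0.80 for all circRNAs. By limma 0 of these 8 were called and 1, a circle of app, had an unadjusted p under 0.05. By edgeR and by DESeq2 0 were called and 0 had an unadjusted p under 0.05. For the list of C2 domain and cortical genes, 17 circles of 6 hosts were tested, with a median of 0.65 and 3 called higher (17.6%, beside 21.8% of all tested circRNAs), against 1 by edgeR and 1 by DESeq2. The 3 were a pair of circles of Syt1, the calcium sensor of synaptic vesicle release, both at 0 in all pre-treatment libraries, and 1 circle of aPKC, a kinase of the polarity complex that holds par-6. The aPKC circle averaged 8.54 normalized reads over the exposed groups and 2.10 in pre-treatment heads, where it ran from 0 to 6.29, with a log2 fold change of 2.24 (limma, adjusted p = 0.0247). All 3 passed the filter on low values only through exposed groups, where they are high, so nothing is read from their count.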
